A study of Mus musculus with 90 samples.

Results

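The keratins are the genes whose symbol is Krt followed by a number; the keratin-associated proteins (Krtap) were left out. Of the 20414 genes in the deposited table, 53 were keratins, and RefSeq lists 2 further keratin symbols that were not analysed here. The values came from female mice labelled C57BL/6 (C57BL/6J in the study's methods) and 10 weeks old by the labels, though the methods give a different age, in estrus or in diestrus as staged from stained vaginal smears, with no further treatment in either group. RNA from 15 tissues (stomach, duodenum, the uterus, which the labels call womb, ovary, kidney, liver, spleen, skeletal muscle, heart, aorta, vein, brown adipose tissue (BAT), white adipose tissue (WAT), hypothalamus and cerebrum) was sequenced in 3 libraries per tissue and phase, 90 libraries in all. Levels are FPKM, which corrects fragment counts for transcript length and for the total of the library, so they can be compared between genes.

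Keratins are the intermediate filament proteins of epithelial cells. A filament is built from pairs of a type I (acidic) and a type II (basic to neutral) chain, so an epithelium makes at least 1 of each. Single-layered epithelia such as gut, bile duct and kidney tubule use the simple keratins Krt8, Krt18, Krt19, Krt7, Krt20 and Krt23. In layered squamous epithelium the basal cells make Krt5, Krt14 and Krt15, the upper layers change to Krt1 and Krt10 where the surface cornifies or to Krt4 and Krt13 where it stays moist, and Krt6a, Krt6b, Krt16 and Krt17 belong to hair follicles and to activated, fast-dividing epithelium. The mouse forestomach and the vagina are lined by squamous epithelium, whereas the glandular stomach, the duodenum and the uterine lumen are lined by a single layer.

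The tissues carried their own marker genes: Ucp1 in BAT, Adipoq in WAT, Myh6 in heart, Umod in kidney, Alb in liver, Ckm in skeletal muscle, Atp4b in stomach, Fabp2 in duodenum, Neurod6 in cerebrum, Hcrt in hypothalamus, Fshr in ovary, Hoxa11 in uterus and Cd79a in spleen were each highest in the tissue named. Myh11, a smooth muscle gene, ranked aorta first and vein second. The library of BAT estrus replicate 3 held about 0.0722 M reads, and 12048 genes were at 0 in it, all keratins among them; the other 89 held about 8.13 to 16.7 M. In addition to it, 6 libraries were set aside in 1 alternative fit because marker genes of another epithelium or squamous keratins stood apart in them: duodenum estrus 1, ovary estrus 3, uterus estrus 3, stomach diestrus 3, aorta diestrus 3 and skeletal muscle diestrus 1. Some others had single raised marker lists and were kept, spleen estrus 2 among them, where the pancreatic acinar genes summed to 8200 FPKM against 3.88 to 22.9 in the other spleens. In bulk tissue, fewer cells of a type and less RNA per cell cannot be told apart.

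Keratin RNA was concentrated in stomach, duodenum and uterus. Keratins made up a median of 0.933% of all FPKM in stomach, 0.704% in duodenum and 0.331% in uterus, against 0.0378% in liver, 0.0329% in kidney and 0.0150% or less in each of the other tissues. Of the 53 keratins, 28 reached a mean of 1 FPKM in at least 1 tissue, 19 reached 10 FPKM and 11 reached 100 FPKM. The remaining 25 stayed below a mean of 1 FPKM everywhere, with 2.68 FPKM as the highest value in a single library; the 8 keratins of the inner root sheath and companion layer of hair were among them, as were 13 of the 16 hair and nail keratins. Of the 28 expressed keratins, 14 had their highest mean in stomach, 7 in uterus, 3 in cerebrum, 2 in duodenum and 2 in hypothalamus. Sums over type I and type II chains were within the same order of size in most tissues: the type I to type II ratio had a median of 1.75 in stomach, 1.70 in duodenum, 1.93 in uterus and 1.26 in liver. In kidney it was 0.171, with a range of 0.151 to 0.347, where Krt7 and Krt8, both type II, were the leading keratins. In heart it was 5.19 and in cerebrum 3.58, where Krt222 and, in cerebrum, Krt12, both in the type I sum, took most of the total.

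**Figure D1:**
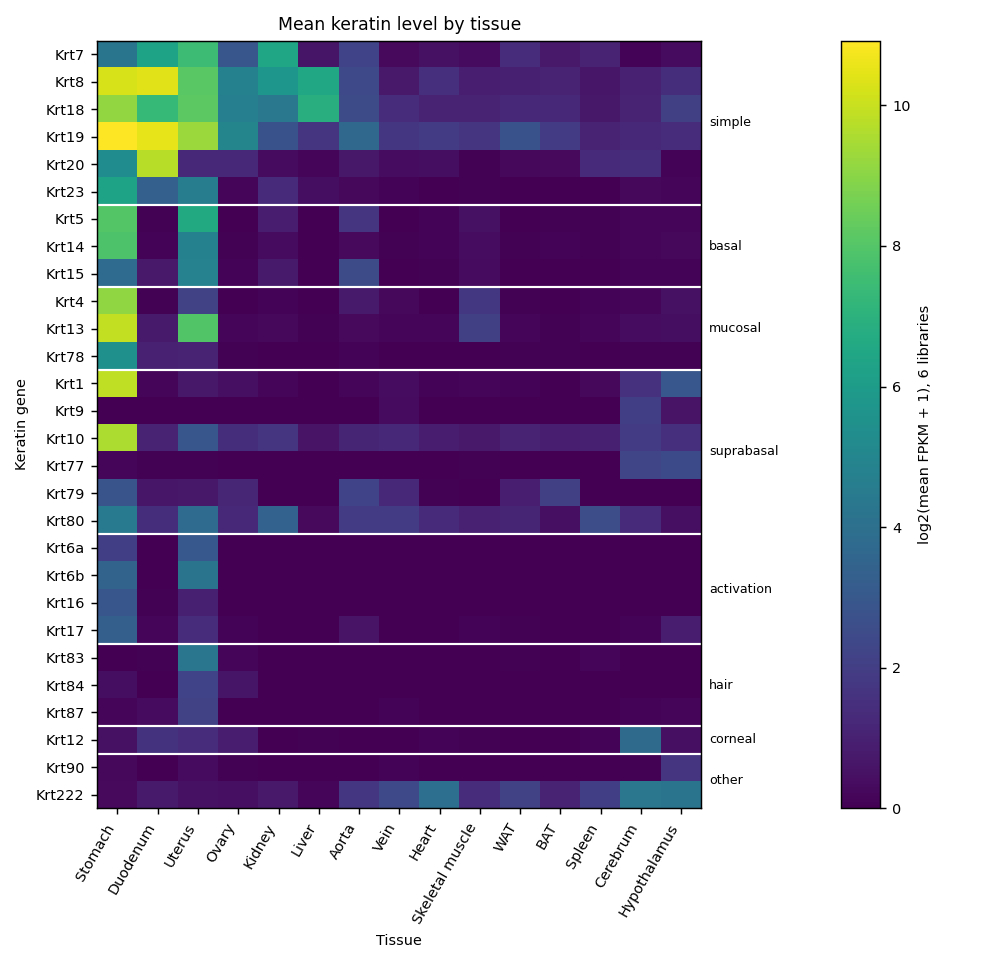
Mean level of the 28 keratins that reached 1 FPKM in at least 1 tissue, as log2(mean FPKM + 1) over 6 libraries (colour), by tissue (columns) and keratin group (rows). Simple keratins fill the stomach, duodenum and uterus columns, the squamous groups appear in stomach and uterus, and Krt222 and Krt12 stand out in brain.

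Each tissue was set against the mean of the other 14 with limma on log2(FPKM + 1), in 1 fit of the 90 libraries with phase as a covariate; a call needed a log2 difference of at least 1 and a Benjamini-Hochberg adjusted p of at most 0.05 over the 17289 genes tested. A keratin entered only if it reached a mean of 1 FPKM in some tissue, so counts over the 28 that entered describe where they are high and support nothing more. In stomach 20 of 28 keratins were called higher, beside 11.4% of all genes tested. In uterus it was 14 (15.4% of all genes), in duodenum 6 (13%), in cerebrum 4 (19.5%), in hypothalamus 4 (21.9%), in kidney 4 (11.6%) and in liver 2 (7.51%). Aorta (9.03%), BAT (7.68%) and heart (8.72%) had 1 each, and the other 5 tissues had 0, beside 5.99% of all genes in skeletal muscle, 19.9% in ovary, 21% in spleen, 13% in vein and 7.39% in WAT. Calls as lower numbered 62, of which 8 were in BAT (18.4% of all genes), 7 in liver (31.7%), 6 each in heart (13.4%), hypothalamus (13.1%), skeletal muscle (31.3%) and vein (2.78%), 5 each in spleen (15.5%) and WAT (8.62%), 4 in cerebrum (16.9%), 3 in kidney (8.72%), 2 in aorta (4.05%) and 1 each in duodenum (15.2%), ovary (5.15%), stomach (10.5%) and uterus (5.67%). Of them 50 were of the simple keratins. The fit shares 1 estimate of spread among the 15 tissues, so its errors do not show the spread within stomach or uterus alone. When a keratin had to be higher than in each other tissue separately, 18 pairs remained of the 57, of which 11 were in stomach. By that rule 322 of all 17289 genes tested were called in stomach.

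Krt8 (Entrez Gene 16691) and Krt18 (16668), the type II and type I chains that pair in simple epithelium, are neighbouring genes. The 300 bases around their annotated starts (250 before and 50 after, from RefSeq, GRCm38.p6) are shown because the 2 levels went apart between tissues; Krt8 is at chr15:102004293-102004592 on the minus strand and Krt18 at chr15:102027966-102028265 on the plus strand. Capitals mark a match, on either strand, to the TATA box letters TATAAA, to the GC box letters GGGCGG or to TGANTCA, in which N is any base. In Krt8 they are 2 overlapping matches to TATAAA, 1 on each strand, which begin at -1 and -3 from the annotated start.
Krt8: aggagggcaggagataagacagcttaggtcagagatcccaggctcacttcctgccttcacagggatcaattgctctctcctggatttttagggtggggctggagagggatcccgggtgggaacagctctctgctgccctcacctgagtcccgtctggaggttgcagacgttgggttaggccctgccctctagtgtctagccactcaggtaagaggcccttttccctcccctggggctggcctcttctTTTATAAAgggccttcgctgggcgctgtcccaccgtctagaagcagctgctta
Krt18: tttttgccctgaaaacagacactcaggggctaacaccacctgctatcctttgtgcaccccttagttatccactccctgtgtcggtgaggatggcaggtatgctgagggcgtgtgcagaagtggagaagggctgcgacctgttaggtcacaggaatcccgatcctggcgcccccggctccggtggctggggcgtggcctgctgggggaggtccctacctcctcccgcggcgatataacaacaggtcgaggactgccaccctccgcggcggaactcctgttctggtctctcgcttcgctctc
TATAAA was found in 14.2% of the 27025 gene starts in the table, GGGCGG in 35.9% and TGANTCA in 7.93%. Of the 36 keratins with a sequence in the table, 19 held TATAAA, 2 held GGGCGG and 1 held TGANTCA. Among the 16 of them that reached a mean of 1 FPKM in some tissue, 5 held TATAAA, 1 held GGGCGG and 1 held TGANTCA. Krt18 matched none of the 3.

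Krt8 was highest in duodenum, with 1724, 1044 and 1424 FPKM in the estrus libraries and 1303, 1376 and 1360 in diestrus. In stomach the values were 815, 1097 and 1317 in estrus and 1556, 1160 and 1465 in diestrus. The ranges of the 2 tissues overlapped, and the difference between them did not pass an exact two-sided permutation test of 6 against 6 libraries (adjusted p = 0.637 over the 66 neighbouring pairs of tissues tested for 10 keratins). Below them the steps were clear: uterus had 278 ± 104 FPKM (SD, n = 6), liver 93.2 ± 11.3 and kidney 52.5 ± 7.12, and stomach over uterus, uterus over liver and liver over kidney each had p = 0.00216 in the exact test, the smallest that 6 against 6 libraries allow (adjusted p = 0.0179). Kidney and ovary did not separate (adjusted p = 0.0833 by the same exact test). Krt18 followed another order. It was highest in stomach (566 ± 101 FPKM, n = 6), then uterus (290 ± 70), with stomach above uterus at an adjusted p of 0.0179 (exact test). Duodenum came next with 160 ± 91.8 FPKM and did not differ from uterus (adjusted p = 0.0918) or from liver at 117 ± 6.65 (adjusted p = 0.657; exact permutation tests). The Krt8 to Krt18 ratio, taken within each library, therefore ran from 5.12 to 14.5 in duodenum, 1.82 to 2.66 in stomach, 1.81 to 3.24 in kidney, 0.482 to 1.40 in uterus and 0.612 to 0.895 in liver. The duodenal range overlapped with none of the others, and the liver range lay within that of uterus. Reads of pseudogene copies of either gene could be split by the counting, which the FPKM do not show.

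**Figure D2:**
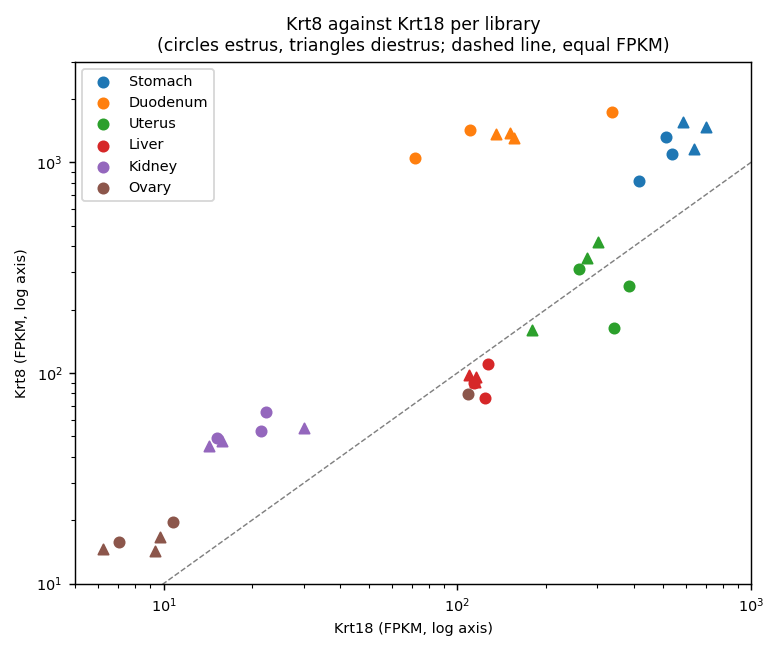
Krt8 (vertical) against Krt18 (horizontal) in FPKM on log axes, 1 point per library, in the 6 tissues with the highest levels. Duodenum lies farthest above the line of equal FPKM, liver lies just below it, and 1 ovary library (estrus replicate 3) lies beside the liver points.

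Krt19 (16669), a type I chain of gut and ductal epithelium, was the most abundant keratin of the series. The stomach libraries held 1364, 1648 and 2464 FPKM in the estrus libraries and 2286, 1665 and 2188 in the diestrus ones. Duodenum held 3008, 530 and 1066 in estrus and 1454, 1433 and 1284 in diestrus, a spread in which the highest and the lowest library were both of estrus. Uterus had 455, 659 and 689 in estrus and 887, 923 and 121 in diestrus. Stomach and duodenum did not differ (adjusted p = 0.362), nor did duodenum and uterus (adjusted p = 0.109), while uterus exceeded ovary (adjusted p = 0.0317; exact permutation tests). In liver, where Krt8 and Krt18 were high, Krt19 had 2.21 ± 0.216 FPKM (n = 6); hepatocytes are known for Krt8 and Krt18 and bile ducts for Krt7 and Krt19.

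Krt20 (66809), a keratin of the upper villus and of gastric surface cells, separated the 2 gut tissues: duodenum had 871 ± 347 FPKM and stomach 38.8 ± 24.8 (n = 6 each), with no overlap (exact test, adjusted p = 0.0179), and stomach in turn exceeded cerebrum at 1.72 ± 0.495 (adjusted p = 0.0179). Krt20 was called higher in duodenum than in each other tissue. Krt7 (110310), a type II chain of ducts and of many glandular epithelia, was highest in uterus, with 281, 140 and 299 FPKM in the estrus libraries and 196, 111 and 41.3 in the diestrus ones. Kidney followed, with 68.3, 73.9 and 126 in estrus and 83.6, 82.6 and 73.5 in diestrus. Uterus and kidney did not differ (adjusted p = 0.313, exact test), and every kidney library lay within the uterine range. In kidney Krt7 exceeded Krt8, also type II, in each of the 6 libraries, by 1.29 to 1.94 times. Krt23, a less studied type I chain, had 80.3 ± 34.0 FPKM in stomach, 23.7 ± 26.4 in uterus and 9.22 ± 15.3 in duodenum, and was called higher in stomach than in each other tissue.

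The duodenal means of Krt7 and Krt23 rested on 1 library. Duodenum estrus replicate 1 had 341 FPKM of Krt7 and 40.4 of Krt23, where the other 5 libraries had 8.79 to 38.2 and 2.18 to 4.30. The same library had 9.38 FPKM of Krt80 against 0.280 at most in the others. Its sum over 9 gastric gland genes was 68879 FPKM, against 0.940 to 29.4 in the other duodenal libraries. In it 8 of the 9 genes lay above all the others, and none of the 9 was at 0. Tff2, a peptide of mucous cells, was at 16401 FPKM and Atp4b, of acid-secreting parietal cells, at 0.17. All 10 pancreatic acinar genes were above the other libraries as well (sum 103 FPKM against 4.62 to 12.8), and the intestinal sum was the lowest, at 6502 FPKM against 11212 to 24894. The part of other tissue in these keratin values was not tested. Without this library Krt7 had a duodenal mean of 26.7 ± 11.4 FPKM, Krt19 one of 1153 ± 381 and Krt18 one of 125 ± 34.3 (n = 5).

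Ovary was near background for squamous keratins and low for simple ones. In 5 libraries Krt8 lay between 14.3 and 19.7 FPKM, Krt18 between 6.24 and 10.8, Krt19 between 7.83 and 12.8 and Krt7 between 2.32 and 4.79. The library of estrus replicate 3 had 79.2 of Krt8, 109 of Krt18, 129 of Krt19 and 22.1 of Krt7. In it all 8 genes of the oviduct and ciliated epithelium list were above every other ovary library, none was at 0, and their sum was 1905 FPKM against 26.4 to 78.3; Ovgp1, an oviduct glycoprotein, had 1563 FPKM. All 8 mesothelium genes and 14 of 15 epithelium genes were above the other ovary libraries as well, none at 0. Their sums were 101 FPKM against 40.6 to 59.8 and 366 against 64.7 to 98.3. The urothelium sum was 42.7 against 4.83 to 7.35 and the airway sum 35.8 against 2.82 to 6.55. Whether oviduct or another tissue gave these keratin values was not tested. The Krt8 to Krt18 ratio of this library was 0.729, below the 1.53 to 2.33 of the others.

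The squamous keratins formed a second programme in stomach. Mean levels were 978 FPKM for Krt13 (16663), 933 for Krt1 (16678), 761 for Krt10 (16661), 553 for Krt4 (16682), 256 for Krt5 (110308), 235 for Krt14 (16664), 43.1 for Krt78 and 12.95 for Krt15 (16665), each with an SD larger than its mean. Krt5 had 445, 19.6 and 845 FPKM in the estrus libraries and 187, 39.1 and 0.17 in the diestrus ones. Krt14 had 433, 15.4 and 728 in estrus and 192, 38.9 and 0.05 in diestrus. The order of the libraries was the same for both genes, with diestrus replicate 3 almost without either. Krt13, of the moist upper layers, had 2031, 30.5 and 3256 in estrus and 393, 149 and 8.82 in diestrus. Krt1, of cornifying layers, had 1937, 33.8 and 3067 in estrus and 363, 197 and 0.64 in diestrus. Stomach was called higher than each other tissue for Krt5, Krt14, Krt4, Krt13, Krt78, Krt1, Krt10, Krt6b, Krt16 and Krt17, and for the simple keratin Krt23. In the exact test stomach did not differ from uterus, the next tissue, for Krt5 (adjusted p = 0.352), Krt14 (0.203), Krt13 (0.257) or Krt4 (0.0952), where the spread of the stomach libraries counts in full.

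Krt5 and Krt14, the obligate pair of basal cells, lie on chromosomes 15 and 11. Their start regions and that of Krt13 (RefSeq, GRCm38.p6, all on the minus strand, with capitals as above) are printed because the pair kept in step across libraries; they are at chr15:101712856-101713155, chr11:100205981-100206280 and chr11:100121517-100121816.
Krt5: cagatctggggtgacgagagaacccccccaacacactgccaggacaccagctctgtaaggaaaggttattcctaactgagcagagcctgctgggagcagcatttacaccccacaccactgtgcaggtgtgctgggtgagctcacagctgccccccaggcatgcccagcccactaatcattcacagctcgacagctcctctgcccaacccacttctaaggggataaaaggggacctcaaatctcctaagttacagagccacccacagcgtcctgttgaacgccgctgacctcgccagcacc
Krt14: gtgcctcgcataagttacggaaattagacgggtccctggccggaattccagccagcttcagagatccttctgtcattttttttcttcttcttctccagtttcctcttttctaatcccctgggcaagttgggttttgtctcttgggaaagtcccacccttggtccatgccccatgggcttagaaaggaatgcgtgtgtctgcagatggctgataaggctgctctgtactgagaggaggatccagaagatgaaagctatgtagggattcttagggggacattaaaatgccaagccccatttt
Krt13: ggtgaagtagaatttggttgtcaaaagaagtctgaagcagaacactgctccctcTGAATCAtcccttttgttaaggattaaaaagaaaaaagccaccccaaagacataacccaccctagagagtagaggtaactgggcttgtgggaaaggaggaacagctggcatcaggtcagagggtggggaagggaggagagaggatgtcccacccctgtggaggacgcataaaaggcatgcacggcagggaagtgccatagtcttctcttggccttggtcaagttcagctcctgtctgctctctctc
Krt5 and Krt14 held none of the 3 motifs in these windows. The TGAATCA of Krt13, which matches TGANTCA on both strands, was the only such match among the 36 keratins.

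In the 5 stomach libraries with more than 10 FPKM of Krt5, Krt5 itself spanned 43.2 times and Krt14 47.2 times, yet the Krt14 to Krt5 ratio stayed between 0.789 and 1.03. Krt1 and Krt10 also kept close, with Krt1 at 1.14 to 1.44 times Krt10 in these libraries. The upper-layer genes varied more against the basal ones: the ratio to Krt5 spanned 1.73 to 5.02 for Krt1, 1.35 to 4.28 for Krt10, 1.56 to 4.56 for Krt13 and 0.527 to 2.45 for Krt4. The activation keratins broke the pattern. Krt16 had 13.6, 3.29 and 1.79 FPKM in the estrus libraries and 10.8, 8.40 and 1.05 in the diestrus ones, and Krt17 had 24.1, 2.41 and 1.79 in estrus and 17.96, 5.90 and 0.34 in diestrus. Estrus replicate 3, highest for Krt5, Krt14, Krt13 and Krt1, was second lowest for both, and the ratio to Krt5 spanned 101 times for Krt16 and 71.2 times for Krt17 over the 5 libraries. Krt6a and Krt6b, near-identical copies whose reads may be split between them, spanned 54.2 and 29.0 times.

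None of the simple keratins had exactly that library order, and Krt23 departed from it in its 2 lowest libraries alone. Over the 6 stomach libraries Krt8 spanned 1.91 times and Krt19 1.81 times, Krt18 ran from 415 to 705 FPKM, Krt7 from 12.6 to 26.2, Krt23 from 52.0 to 142 and Krt20 from 16.1 to 83.5, a span of 5.18 times. Krt7, Krt19 and Krt23 were, like the squamous genes, highest in estrus replicate 3, and Krt20 in diestrus replicate 1. The gastric gland sum was 85285, 166563 and 62380 FPKM in the estrus libraries and 110589, 110992 and 103553 in the diestrus ones, so the 2 libraries with the most squamous keratin had the lowest sums. Genes of the squamous programme that are no keratins went the same way: Trp63, the basal cell transcription factor, had 28.6, 0.64 and 60.9 FPKM in the estrus libraries and 9.46, 1.86 and 0 in the diestrus ones, and Lor, the main protein of the cornified envelope, had 1114, 10.2 and 1977 in estrus and 171, 75.1 and 0.33 in diestrus. How much forestomach each sample held is not given in the sources used here, and its part in the squamous values was not tested.

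**Figure D3:**
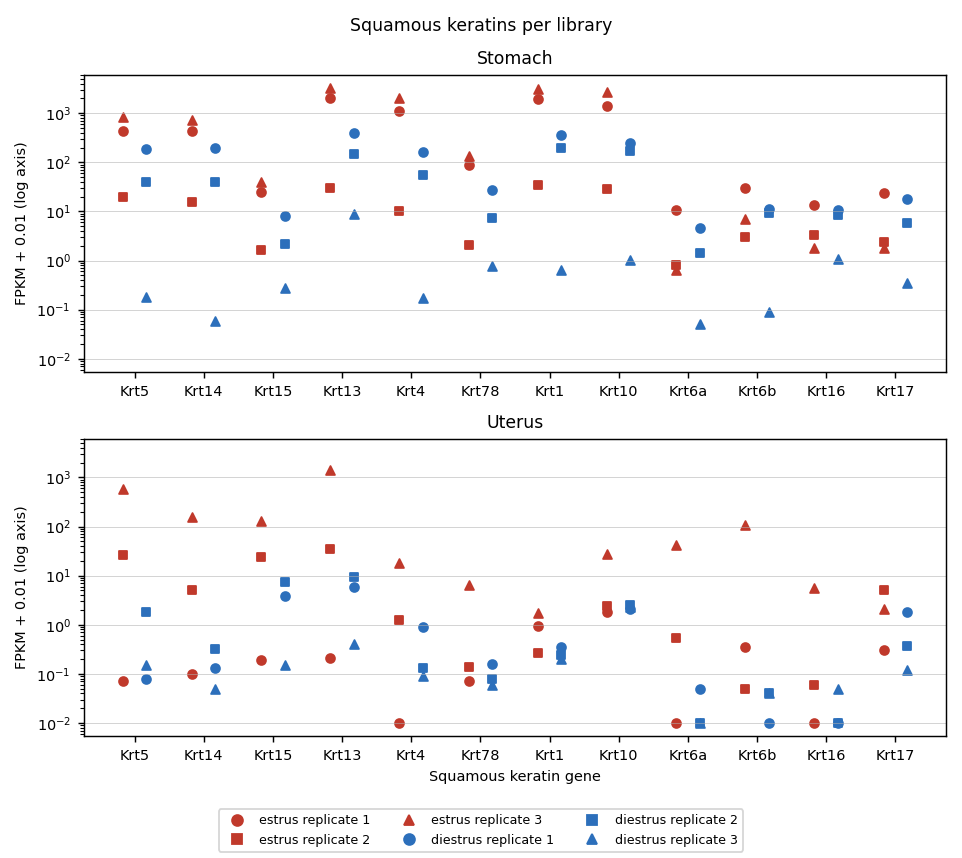
FPKM + 0.01 of 12 squamous keratins (log axis) in each stomach (top) and uterus (bottom) library, with estrus in red, diestrus in blue and the replicate number by symbol. In stomach Krt5 to Krt10 fall in the same library order while Krt6a to Krt17 do not; in uterus estrus replicate 3 lies above the rest for all but Krt17.

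The uterus had the same basal genes in a different mix, and nearly all of it came from 1 library. Estrus replicate 3 held 568 FPKM of Krt5, 156 of Krt14, 132 of Krt15, 1431 of Krt13, 105 of Krt6b and 41.1 of Krt6a. Estrus replicate 2 was next, with 26.2 of Krt5, 5.16 of Krt14, 24.3 of Krt15 and 34.8 of Krt13. The other 4 uterine libraries had at most 1.80 of Krt5 and 9.29 of Krt13. In contrast with stomach, Krt1 reached only 1.74 FPKM, Krt4 18.3 and Krt10 28.1 in estrus replicate 3. Relative to Krt5, that library held 0.0322 of Krt4, 0.00306 of Krt1 and 0.274 of Krt14, where stomach estrus replicate 3 held 2.36, 3.63 and 0.862. Lor, at 0.87 FPKM, lay within the 0.34 to 1.60 of the other uterine libraries, while Trp63 had 4.31 FPKM against 0.72 or less. Lor did not stand for its list: the cornified envelope genes summed to 12426 FPKM in estrus replicate 3, the highest of the uterine libraries. Their sum was 8714 in estrus replicate 1 and 88.7 to 2247 in the rest. All 8 genes of the oviduct and ciliated list lay above the other uterine libraries in this sample (sum 3611 FPKM against 105 to 265, none at 0). So did 6 of 7 airway genes (299 against 4.93 to 23.8) and all 9 intestinal genes (22.6 against 0.430 to 8.55), and the sums of the urothelium list (46.6 against 4.64 to 11.6, 2 of 4 genes above the others) and of the mammary list (8.79 against 0.91 to 4.84, 7 of 9 genes at 0). The part of neighbouring tract tissue in its keratins was not tested. Without the 7 libraries (BAT estrus replicate 3 and the 6 set aside with it), the calls of Krt5 (log2 difference 0.72, adjusted p = 0.0520), Krt14 (0.07, adjusted p = 0.838) and Krt6b (-0.14, adjusted p = 0.281, limma) in uterus were lost. Those of Krt13 and Krt15 were kept. Uterus estrus replicate 3 was among the libraries set aside for raised markers or squamous keratins, so these losses are no independent test.

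The hair keratins of the uterus did not go with the squamous ones. Krt83 (100126226), a type II chain of the hair cortex, had 0.62, 28.1 and 0.34 FPKM in the estrus libraries and 40.7, 6.31 and 33.4 in the diestrus ones. Krt84, of nail and tongue papillae, had 4.74, 3.38 and 1.73 in estrus and 10.99, 0.48 and 0.29 in diestrus, and Krt87 had 12.9, 1.80 and 0.82 in estrus and 3.45, 0.64 and 0.55 in diestrus. Each was called higher in uterus than in each other tissue, with log2 differences from the mean of the others of 3.18, 1.69 and 1.53. Estrus replicate 3, the library richest in Krt5, was the lowest for Krt83. The sum of the hair follicle marker list was 47.0 FPKM in estrus replicate 3 and 0.600 to 8.07 in the others, so it was highest where Krt83 was lowest. Krt86, which adjoins Krt83 on chromosome 15, and Krt81, next to Krt86, stayed below a mean of 1 FPKM in uterus.

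Smaller amounts of squamous keratin appeared in single libraries of tissues without squamous epithelium. Aorta diestrus replicate 3 had 29.2 FPKM of Krt15, 12.4 of Krt5, 45.7 of Krt19 and 16.1 of Krt8, where the other 5 had at most 0.10, 0.12, 7.91 and 3.47. In it the 7 genes of an airway epithelium list, chosen after the values were seen, were all above the other aortas (sum 3070 FPKM against 1.98 to 14.5, none at 0), led by Scgb1a1 at 1047 and Bpifa1 at 696. The mammary list was also raised, at 338 FPKM against 0.73 or less, with 5 of 9 genes at 0. Skeletal muscle diestrus replicate 1 had 18.5 FPKM of Krt13 and 13.9 of Krt4, where the other 5 had at most 0.44 and 0.28; its Krt5 was 1.87 and its Krt14 0.62. Of the 12 marker lists, 3 lay above the other muscle libraries, by small amounts: choroid plexus at 146 FPKM against 143, hair follicle at 0.39 against 0.28 and pancreatic acini at 0.38 against 0.29. The cornified envelope genes, of squamous epithelium, summed to 44.3 FPKM there against 3.77 to 7.95. In kidney diestrus replicate 2 had 2.48 FPKM of Krt5 and 1.78 of Krt15, and estrus replicate 1 had 1.22 and 1.21, where the other 4 had at most 0.31 and 0.47; their urothelium sums were 35.3 and 14.8 FPKM against 1.54 to 5.16. The same 2 kidneys were highest for Krt19, at 13.6 and 9.67 FPKM. The part of other tissues in these values was not tested.

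Brain and heart had low levels of the simple keratins and higher levels of a few others. The highest means among the simple ones were 3.17 FPKM of Krt18 in hypothalamus, 2.88 of Krt19 in heart and 1.72 of Krt20 in cerebrum. Krt222 (268481), a keratin-related type I gene, had 18.8 ± 2.38 FPKM in cerebrum, 17.4 ± 0.954 in hypothalamus and 14.9 ± 2.14 in heart (n = 6 each), and 4.26 or less in every other tissue. It was called higher than the mean of the others in the 3 tissues, with log2 differences of 2.76, 2.66 and 2.42. Krt12 (268482), known as the keratin of corneal epithelium, had 6.34, 14.8 and 15.1 FPKM in the estrus cerebrum libraries and 19.6, 12.1 and 9.22 in diestrus, and 0.357 ± 0.196 in hypothalamus. Krt9, known from palm and sole epidermis, had 3.13 ± 1.32 in cerebrum and 0.472 ± 0.188 in hypothalamus. Both were called higher in cerebrum than in each other tissue. Hypothalamus in turn had 6.25 to 7.38 FPKM of Krt1 in its 6 libraries, against 1.34 to 3.12 in cerebrum, with no overlap. Krt77, the gene next to Krt1, had 4.49 ± 0.508 in hypothalamus and 2.62 to 6.79 in cerebrum, and in stomach, where Krt1 was at its highest, a mean of 0.115. Krt90 had 2.14 ± 0.272 FPKM in hypothalamus and was called higher there than in each other tissue. The basal genes Krt5 and Krt14 had means of 0.178 FPKM or less in both brain tissues, and Krt10 had 2.88 ± 0.797 in cerebrum.

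**Figure D4:**
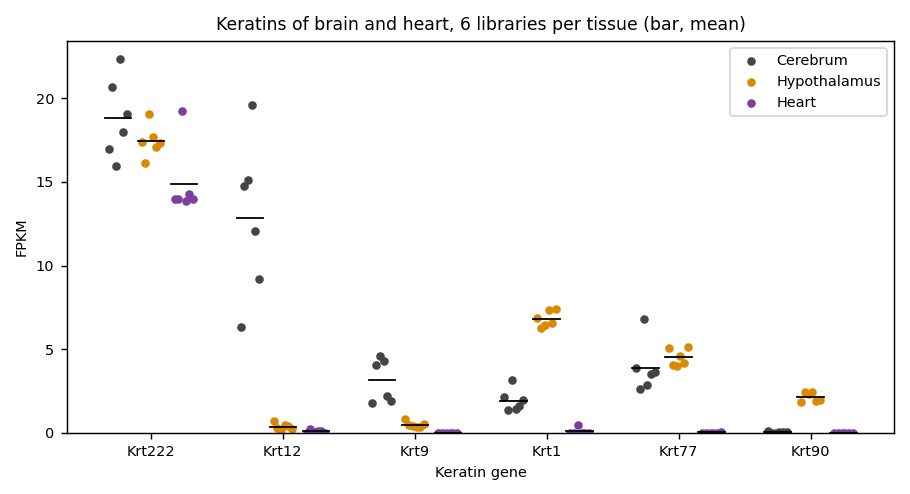
FPKM of 6 keratins in the 6 libraries of cerebrum, hypothalamus and heart (points) with their mean (bar). Krt222 is shared by the 3 tissues, Krt12 and Krt9 are higher in cerebrum, and Krt1 and Krt90 in hypothalamus.

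Krt80 and Krt79, both type II chains outside the classical pairs, were spread over several tissues. Krt80 (74127) reached a mean of 1 FPKM in 11 tissues: 21.1 ± 19.6 in stomach, 13.1 ± 11.2 in uterus, 9.93 ± 2.21 in kidney, 4.92 ± 0.792 in spleen, and 1.18 to 2.80 in 7 others. Duodenum and ovary reached it only through estrus replicate 1 and estrus replicate 3, respectively. Without these libraries the mean of Krt80 was 0.186 FPKM in duodenum and 0.85 in ovary (n = 5 each). In WAT estrus replicate 1 held 2.73 FPKM of Krt80 and the other libraries 0.46 to 1.18. Krt79, of sebaceous duct cells, had 6.13 ± 1.95 FPKM in stomach, 3.64 ± 1.70 in aorta and 3.16 ± 1.61 in BAT, and was called higher than the mean of the other tissues in each of them.

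Genes that anchor keratin filaments were counted list by list, beside the 11.4% of all genes called higher in stomach, 13% in duodenum and 15.4% in uterus. Of the 13 desmosome genes tested, 12 were called higher in stomach, 8 in duodenum and 5 in uterus, and 6 in keratin-poor heart (8.72% of all genes), where their sum of 442 to 510 FPKM was above the 362 to 420 of duodenum. Of the 10 linker and hemidesmosome genes it was 7, 5 and 5. Of the 22 cornified envelope genes it was 20, 2 and 5, and of the 9 squamous lineage regulators 9, 4 and 3. The median log2 difference of the cornified envelope genes was 3.73 in stomach, -0.32 in duodenum and 0.54 in uterus, beside -0.19, -0.20 and 0.24 over all genes tested. Across the 15 tissue means the genes most like Krt8 were Tmem30b (Pearson r = 0.971), Map3k21 (0.967) and Cdh1 (0.962), the last being E-cadherin of epithelial junctions. Those most like Krt5 were Calml3 (0.987), Crct1 (0.984) and Il1f6 (0.983), and those most like Krt13 were Crct1 (0.991), Cnfn (0.986) and Il1f6 (0.986). These are descriptions over 15 means on the log2(FPKM + 1) scale, and for Krt5 and Krt13 they rest mainly on stomach and uterus.

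Between phases no keratin was called in any tissue. The test was limma on log2(FPKM + 1) within each tissue, 3 estrus against 3 diestrus libraries, for genes whose mean in that tissue reached 1 FPKM. It covered 129 pairs of a keratin and a tissue, 28 keratins in all, and the smallest adjusted p was 0.366. Over all genes the share called was 0% in 13 tissues, 0.00936% in skeletal muscle and 0.00798% in spleen. At an unadjusted p under 0.05 there were 5 keratin pairs, or 3.88% of the 129, beside 7.84% of all gene and tissue pairs. The 3 libraries of each phase did not overlap in 9 pairs, or 6.98%, beside 15.0% of all gene and tissue pairs. Those 9 were in vein (3), BAT, stomach, spleen, ovary, duodenum and uterus (1 each), and the other tissues had 0, beside 11.9% of genes in aorta, 7.8% in cerebrum, 11.7% in heart, 19.6% in hypothalamus, 7.98% in kidney, 11.3% in liver, 26.2% in skeletal muscle and 12% in WAT. For a single gene an exact permutation test of 3 against 3 cannot go below p = 0.1.

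**Figure D5:**
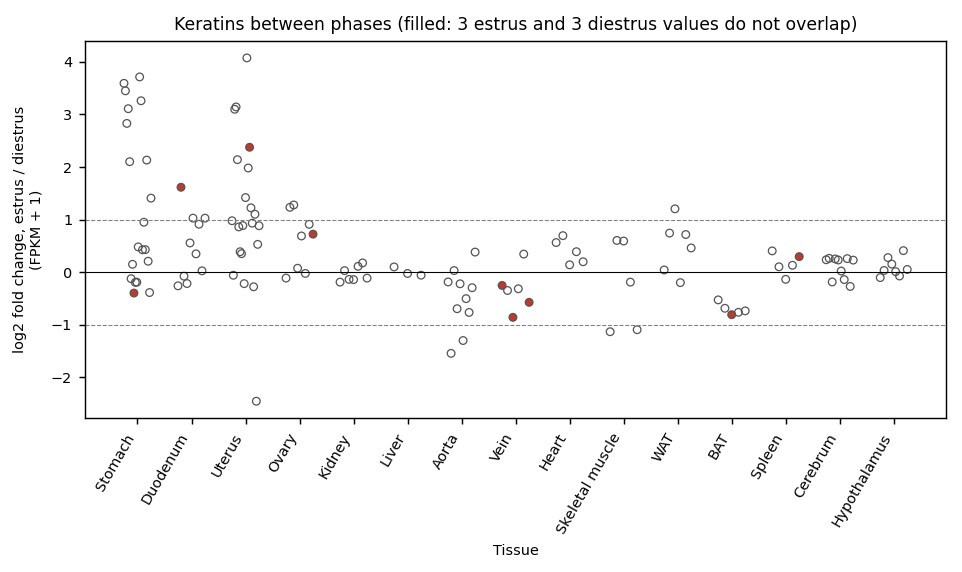
Log2 fold change of FPKM + 1 between estrus and diestrus (vertical) for each of the 129 keratin and tissue pairs (points), by tissue; dashed lines mark 1 and -1, and filled points are the 9 pairs whose phases do not overlap. Stomach and uterus hold the widest scatter, up to 4.08 for Krt5 in uterus.

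The largest fold changes were those of the squamous keratins, and none passed the test. Krt5 in uterus averaged 198 ± 321 FPKM in estrus and 0.670 ± 0.979 in diestrus (log2 fold change 4.08, SE 2.02, adjusted p = 0.897, limma). Krt4 in stomach averaged 1033 ± 996 and 72.9 ± 82.1 (log2 fold change 3.71, SE 2.62, adjusted p = 0.70). With any 1 library left out the first ran from 1.83, without estrus replicate 3, to 6.37 and the second from 1.59 to 6.06. In stomach 15 of the 20 keratins tested lay above 0, with a median log2 fold change of 0.71 beside -0.02 over all genes, and in uterus it was 17 of 21 with a median of 0.93 beside -0.07. These keratins include ones that reached 1 FPKM only through the high libraries; without that filter the medians were 0.15 in stomach (32 of 43 above 0) and 0.16 in uterus (32 of 45). The stomach median was 0.35 when estrus replicate 1 was left out and 0.44 when diestrus replicate 3 was, and the uterine one was 0.52 without estrus replicate 3. In duodenum 7 of 10 keratins lay above 0 (median 0.45 beside -0.16), but 2 of 8 (median -0.23) without estrus replicate 1, the library with gastric genes, and the ovary median of 0.70 was 0.07 without estrus replicate 3. Without the filter both were 0.02. Among the stomach keratins the 3 basal ones had a median of 3.11 and the 6 simple ones one of -0.19. Of the 21 cornified envelope genes tested there 18 lay above 0 (median 2.33) and of the 12 desmosome genes 9 (median 0.83), and 0 of either list were called. In uterus 16 of 17 cornified envelope genes (median 1.83) and 8 of 8 desmosome genes (median 0.47) lay above 0, and 0 were called.

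Krt18 in stomach was lower in each estrus library, at 415, 540 and 512 FPKM, than in diestrus, at 586, 638 and 705 (log2 fold change -0.40, SE 0.17, adjusted p = 0.673, limma; 13.7% of stomach genes did not overlap). Its partner Krt8 overlapped between phases, with a log2 fold change of -0.39. In uterus Krt83 averaged 9.69 FPKM in estrus and 26.8 in diestrus and overlapped, and Krt6b, the only pair there that did not overlap, was at 0.34, 0.04 and 105 against 0, 0.03 and 0.03 (7.91% of uterine genes did not overlap).

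Krt12 in duodenum had 5.76, 2.48 and 2.54 FPKM in the estrus libraries and 0.37, 0.46 and 0.45 in the diestrus ones. The phases did not overlap, as for 26.6% of duodenal genes, and the log2 fold change was 1.61 (SE 0.31, adjusted p = 0.368, limma). It was 1.30 to 1.78 with any 1 library left out, the lowest without estrus replicate 1. Krt20, its neighbour on chromosome 11, averaged 1050 ± 408 FPKM in estrus and 691 ± 194 in diestrus and overlapped.

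In vein 3 of the 6 keratins tested were lower in each estrus library, beside 18.2% of genes without overlap. Krt19 had 1.19, 1.74 and 1.05 FPKM against 3.76, 3.49 and 2.45 (log2 fold change -0.86, SE 0.19, adjusted p = 0.412, limma). Krt80 had 1.45, 2.04 and 2.65 against 3.14, 4.35 and 3.06, and Krt10 1.26, 1.03 and 0.99 against 1.83, 1.40 and 1.28. Krt80 went the other way in spleen, at 5.77, 5.99 and 4.84 in estrus and 4.53, 3.98 and 4.44 in diestrus (8.78% of spleen genes did not overlap), and in ovary, at 1.27, 0.92 and 3.93 against 0.63, 0.79 and 0.64 (13.7%). In ovary Krt80 reached a mean of 1 FPKM only through estrus replicate 3, the other 5 libraries having a mean of 0.85. Krt222 in BAT was at 0.80, 1.00 and 0 in estrus and 1.29, 2.01 and 1.82 in diestrus; the 0 is the library of few reads, and 30.1% of BAT genes did not overlap. In the other tissues the largest changes were Krt15 in aorta (log2 fold change -1.55), Krt13 in skeletal muscle (-1.13), Krt19 in ovary (1.28), in WAT (1.204), in heart (0.69) and in spleen (0.40), Krt8 in hypothalamus (0.41), Krt80 in cerebrum (-0.27), Krt10 in kidney (-0.19) and Krt18 in liver (0.10), and in each of them the phases overlapped. The values for aorta, skeletal muscle and ovary rest on the single libraries described above. That of Krt19 in heart rests on estrus replicate 3, with 9.81 FPKM against 1.03 to 1.96 in the other 5, and turned to -0.0200 without it; the mesothelium sum of that library was 35.5 FPKM against 6.30 to 11.7, and its gastric gland sum 210 against 0.27 or less. Krt19 in spleen was highest, at 2.05 FPKM, in estrus replicate 2, the library with pancreatic genes, where Krt80 was also highest. The part of other tissue in these values was not tested.

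Krt19 in WAT had 10.6, 2.84 and 11.7 FPKM in the estrus libraries and 1.29, 2.23 and 5.27 in the diestrus ones (adjusted p = 0.791, limma). The mesothelium sum was 78.0, 31.4 and 66.5 FPKM in these estrus libraries and 25.4, 32.7 and 48.8 in diestrus. The urothelium sum was 6.08, 2.12 and 8.49 against 0.74, 2.04 and 3.01. Both sums were highest in the 2 libraries highest for Krt19. The oviduct and ciliated sum was not, at 105, 53.2 and 40.9 in estrus and 54.3, 37.5 and 43.0 in diestrus. The part of these cell types in Krt19 was not tested. In hypothalamus Krt8 had 1.30, 2.65 and 2.35 against 1.34, 1.39 and 1.15. Its adjusted p of 0.366 (limma) was the smallest of all keratin pairs, but the adjustment was made within each tissue. Its unadjusted p was 0.0438, against 0.0013 for Krt12 in duodenum and 0.0028 for Krt19 in vein (limma).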

How the data were processed

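The authors filtered BGISEQ-500 reads with SOAPnuke, aligned them with Bowtie2 2.2.5 to GRCm38.p5 and quantified genes with RSEM 1.2.8; the deposited values are FPKM. The labels give an age of 10 weeks and the study's methods a different one. Counts were not used. Depth in reads was estimated from FPKM steps of 933 short genes (49.7% to 73.2% of low values came out whole within 0.2 reads), so counts were not recovered and depth is approximate. At that tolerance part of random values would come out whole too. The study's methods state more reads per sample than any of these estimates. Entrez IDs were matched to symbols in RefSeq; 20265 of 20414 matched. Tests used limma 3.58.1 in R 4.3.3 (trend) on log2(FPKM + 1) for genes whose mean reached 1 FPKM, and exact permutation tests (scipy 1.17.1) for the order of tissues; fold changes on this scale understate low genes. The procedure was tested on simulated data. The members, gene lists and tests were chosen with earlier results of these data known, and the airway list and tissue markers after the values were seen. Keratins named were those at 10 FPKM or more (1 FPKM outside the simple and squamous lists, in their highest tissue), pairs without overlap, and the largest change per tissue; squamous keratins in aorta and muscle, and Krt8, Krt20 and Krt83 between phases, were added after the values were seen. Each phase had 3 mice dissected for all tissues, so libraries of different tissues may share a mouse. The 2 phases hold different mice by design, as the study assigned 3 to each. Correlations of same-numbered libraries ran from -0.568 to 0.475, and 0 tissues had all 3 above 0.1. With 3 libraries per phase they cannot show or exclude a link between same-numbered libraries. Alternatives were a pseudocount of 0.1, no filter, upper quartile scaling, 1 fit of all libraries, a replicate block and leaving out libraries.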

Additional observations from a re-analysis of the deposited data

Results flagged for a closer look

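Dixon's test on log2(FPKM + 1) flagged 1 library in 7 of the 41 groups of 6 libraries examined (simple and squamous keratins at 10 FPKM or more in a tissue), or 17.1%. Chance flags about 1 in 20 of independent groups. Keratins of the same tissue share its 6 libraries, so these groups are not independent and the excess cannot be read as a test. Ovary estrus replicate 3 was far above the others for Krt8 (79.2 FPKM), Krt18 (109) and Krt19 (129), beside its raised oviduct, mesothelium and epithelium genes. Uterus estrus replicate 3 was far above the others for Krt14 (156 FPKM) and Krt6b (105). Uterus diestrus replicate 3 was far below the others for Krt19, at 121 FPKM. Kidney estrus replicate 3 was far above the others for Krt7, at 126 FPKM.

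Krt80 differed in direction between tissues. Every estrus library lay above every diestrus library in ovary (log2 fold change 0.72) and in spleen (0.29), and below them in vein (-0.58). Of all genes tested 13.7% did not overlap in ovary, 8.78% in spleen and 18.2% in vein. In ovary Krt80 passed the 1 FPKM filter only through estrus replicate 3, at 3.93 FPKM against a mean of 0.85 in the other 5. The highest spleen value, 5.99 FPKM, was in estrus replicate 2, the library with pancreatic genes. The difference between tissues was not tested.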

How the results depend on the processing

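No keratin was called between phases under any alternative within a tissue, whether with a pseudocount of 0.1, no filter, upper quartile scaling or any 1 library left out (0 calls in each). With the replicate number as a block there were 0 calls between phases, and in the tissue contrast 57 higher and 62 lower, as without it; in 0 tissues did every estrus library correlate best with its own number. One fit of all 90 libraries, in which the tissues share 1 estimate of spread, called 13 pairs: Krt1, Krt4, Krt5, Krt10, Krt14 and Krt78 in stomach, Krt5, Krt6a, Krt6b, Krt13 and Krt14 in uterus and Krt12 in duodenum higher in estrus, and Krt83 in uterus lower (beside 2.97% of stomach, 6.65% of uterine and 4.37% of duodenal genes). For the 18 pairs named by rule, 186 of 191 alternative values kept direction and side of the threshold. None of the 18 was called and hardly any gene was at 3 against 3, so keeping the side of the threshold says little. Settings in which a keratin fell below the filter gave no value. Krt19 in heart, estrus against diestrus, ran from -0.0200 (without estrus replicate 3) to 1.19 with 1 library left out.

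In the tissue contrast, calls of a keratin as higher fell from 57 to 18 where it had to exceed each other tissue (stomach 11, uterus 3, cerebrum 2, duodenum 1, hypothalamus 1, kidney 0). Of all 17289 genes that rule called 322 in stomach, 130 in uterus, 295 in cerebrum, 378 in duodenum, 245 in hypothalamus and 329 in kidney. Leaving out a replicate number gave 54 to 58 higher calls (stomach 19 to 20, uterus 11 to 14, kidney 3 to 4, duodenum 6 to 6, cerebrum 4 to 4, hypothalamus 4 to 4). Calls as lower rose from 62 to 103 with a pseudocount of 0.1 and were 57 to 62 without a replicate number and 63 without the 7 libraries that stand apart. With that pseudocount lower calls over all genes rose in each tissue too, as from 3179 to 6774 in BAT and from 5475 to 8346 in liver. The call of Krt79 in BAT was lost without replicate 2, those of Krt14 and Krt5 in uterus without replicate 2 or 3, that of Krt6b in uterus without replicate 3 and that of Krt6a in stomach without replicate 1, when Krt87 in uterus was not tested; the cause was not tested. Of the 66 neighbouring pairs of tissues 57 did not differ, also 57 on mean FPKM; with 1 replicate number left out, 62 to 67 did not, the order of tissues changing too, in a design of 4 against 4 whose smallest p is 0.0286. Depth is approximate, and in BAT estrus replicate 3 a keratin at 0 says little.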
